A study of Mus musculus with 4 samples.

Results

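A20, encoded by Tnfaip3, and 9 genes of its ubiquitin-editing partners were examined in single-cell transcriptomes of small intestinal lamina propria from WT and A20ZF7 mice. The 10 genes were Tnfaip3, Tnip1, Tnip2, Tax1bp1, Itch, Cyld, Otulin, Rnf31, Rbck1 and Sharpin. The list is named for what the proteins do and was chosen with earlier results of these data known. All 10 were matched by gene ID among the 31950 gene IDs that the WT and A20ZF7 gene expression libraries shared, and each had the same symbol in both. Each genotype gave 1 library, made from 2 pooled mice aged 12 weeks. The A20ZF7 mice carry the mutation of the A20 gene in every cell of the body, so all cell types of that library are mutant, and the WT mice carry none. From each pool 60000 cells were collected after negative selection for T cells and innate lymphoid cells, and shares of cell types therefore follow the selection. Fibroblasts, smooth muscle, endothelial and plasma cells that came through it are described here beside the lymphocytes.

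A20 restrains signals that run from receptors of the TNF, Toll-like and antigen receptor families to the transcription factor NF-κB. It works on ubiquitin chains: its OTU domain removes chains, and its zinc fingers bind them, the last finger (ZF7) binding linear chains joined head to tail through methionine 1 (M1). LUBAC, a complex of HOIP (Rnf31), HOIL-1 (Rbck1) and Sharpin, builds the linear chains, Otulin and Cyld cut chains, the ABIN proteins (Tnip1, Tnip2) bind chains and A20, and Tax1bp1 and Itch associate with A20 in the editing of signalling proteins. Tnfaip3 is itself a target gene of NF-κB.

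The finger altered in the A20ZF7 mice lies in the last coding stretch of Tnfaip3. In GRCm38.p6 it occupies chr10:19002758-19002820 on the minus strand, within exon 9 of 9, and encodes residues 747 to 767 of the 775 of A20, the last of 7 matches of the A20 zinc finger cysteine pattern. Its 63 coding bases in the reference genome are shown because this finger is what distinguishes the genotypes. The codons of the 4 cysteines that hold the zinc are in capitals.
ZF7 of Tnfaip3: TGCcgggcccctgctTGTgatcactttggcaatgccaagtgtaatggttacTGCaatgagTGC
The residues changed in the knock-in are not given in the sources used here. Counts per gene do not resolve them, so the level of Tnfaip3 RNA does not check the genotype label.

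Because Tnfaip3 and Tnip1 gave the larger differences between the libraries, windows around gene starts were searched for the NF-κB consensus decamer. Both strands were searched, and overlapping matches were counted. RefSeq windows of 300 bases in GRCm38.p6 were found for 8 of the 10 members (not for Itch or Sharpin). Of their 11 windows, 4 held the decamer, 1 each for Tnfaip3, Tnip1, Tax1bp1 and Cyld. Genome-wide 8.46% of 32851 windows of the same length did. The windows reach past the start, and the Tax1bp1 match lay after it. The stretch of 137 bases before the RefSeq start of Tnfaip3 (chr10:19015411-19015547, minus strand), which lies inside the longer span of the gene in GENCODE, held 2 separate matches, in capitals. The stretch of 150 bases before the Tnip1 start (chr11:54962941-54963090, minus strand) held 3 matches that overlap in a single run, also in capitals. A match describes the letters and says nothing of binding in these cells.
Tnfaip3: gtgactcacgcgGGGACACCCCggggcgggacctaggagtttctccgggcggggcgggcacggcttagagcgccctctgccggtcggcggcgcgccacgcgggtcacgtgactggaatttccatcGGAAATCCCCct
Tnip1: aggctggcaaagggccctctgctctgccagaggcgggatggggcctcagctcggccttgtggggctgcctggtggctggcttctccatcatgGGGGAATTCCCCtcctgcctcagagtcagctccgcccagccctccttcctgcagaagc

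The other members lie on chromosomes of their own or apart from one another. In GRCm38, Tnfaip3 spans chr10:19000910-19015657, Tnip1 chr11:54910785-54962917, Tnip2 chr5:34496087-34513991 and Rbck1 chr2:152316334-152332653, all on the minus strand. Tax1bp1 spans chr6:52713729-52766780, Itch chr2:155133509-155226855 and Cyld chr8:88697028-88751945 on the plus strand. Otulin (chr15:27542635-27630693, minus) overlaps Ank on the opposite strand, and Sharpin lies at chr15:76347040-76351111 on the minus strand. Rnf31 (chr14:55591708-55603693, plus) overlaps Irf9 on the same strand, and its counts are therefore uncertain.

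After filters the WT library held 14753 cells and the A20ZF7 library 43162, and 913 cell barcodes occurred in both. Marker gates gave 19 cell types with at least 50 cells in each library, while 3963 WT and 17567 A20ZF7 cells passed no gate or more than 1 and were left out. Regulatory T cells (47 in WT) and NCR-positive ILC3 (34 in WT, 30 in A20ZF7) had too few cells and enter only the pooled groups. The T cell gate asked for at least 2 of the 6 genes of the T cell receptor core. A cell of any other type therefore held at most 1 of these genes, and the gates limit their sum outside T cells. All T cells numbered 2565 in WT and 13698 in A20ZF7 (median depths of 948 and 933 UMIs), innate lymphoid cells 1594 and 2835 (931 and 816 UMIs) and fibroblasts 4456 and 7433 (1105 and 953 UMIs). Levels are given as CPM, the UMIs of a gene summed over the cells of a type and scaled to the same total of UMIs everywhere. Levels of different genes were not compared, since UMI counts carry no correction for gene length or capture. With 1 library per genotype there was no replicate and no test. The 95% intervals of levels, shares and ratios cover counting error only, and cells are not replicates. The hashtags of the WT library told its mice apart, and the values of mouse 1 and mouse 2 are given as the one measure of spread between animals. Only WT cells with a hashtag call enter those values. The A20ZF7 mice were not separated here. A gene is called past the fold when its A20ZF7 to WT ratio of CPM reached 1.5 in either direction with at least 10 UMIs expected in the smaller library.

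Tnfaip3 was abundant in every T cell and innate lymphoid type with enough cells, in both genotypes, and low in structural and plasma cells. In WT its highest level was 1718 CPM, in Th1 or NKT-like T cells, and its lowest was 98.1 CPM, in plasma cells, a range of 17.5-fold. Immunoglobulin genes took up 596205 CPM in WT and 439907 CPM in A20ZF7 plasma cells. This lowers the CPM of every other gene there, so the last place of plasma cells depends on the scaling. The order in WT ran from Th1 or NKT-like cells through ILC1 or NK cells (1692 CPM), Th17-like cells (1456), CD8 T cells (1258), gamma-delta T cells (1223), naive or central memory-like T cells (1010), LTi-like ILC3 (971), ILC2 (830) and macrophages or monocytes (633) to endothelial cells (369), smooth muscle (201), fibroblasts (189 over all their gates) and plasma cells. Neighbours in that order were mostly not resolved. Over the 15 types that carry a name of 1 type, 3 of the 14 neighbouring pairs had intervals that did not overlap in WT, and 2 of 14 did in A20ZF7.

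In A20ZF7 the range between cell types was narrower. The highest level was 1515 CPM, in ILC1 or NK cells, and the lowest 311 CPM, again in plasma cells, a range of 4.87-fold. Both ranges end at plasma cells and so carry their immunoglobulin share, which differed between the libraries. All T cell and innate lymphoid types with enough cells lay between 1206 and 1515 CPM. The median over the 15 named cell types was 830 CPM in WT and 1206 CPM in A20ZF7. Part of this narrowing was in cells that were low in WT, and RNA outside cells differed in the same direction. In barcodes of at most 100 UMIs, which sample free RNA, Tnfaip3 made up 592 CPM of the WT and 958 CPM of the A20ZF7 library, and Ptprc, the CD45 gene carried by all leukocytes, 571 and 934 CPM.

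**Figure D1:**
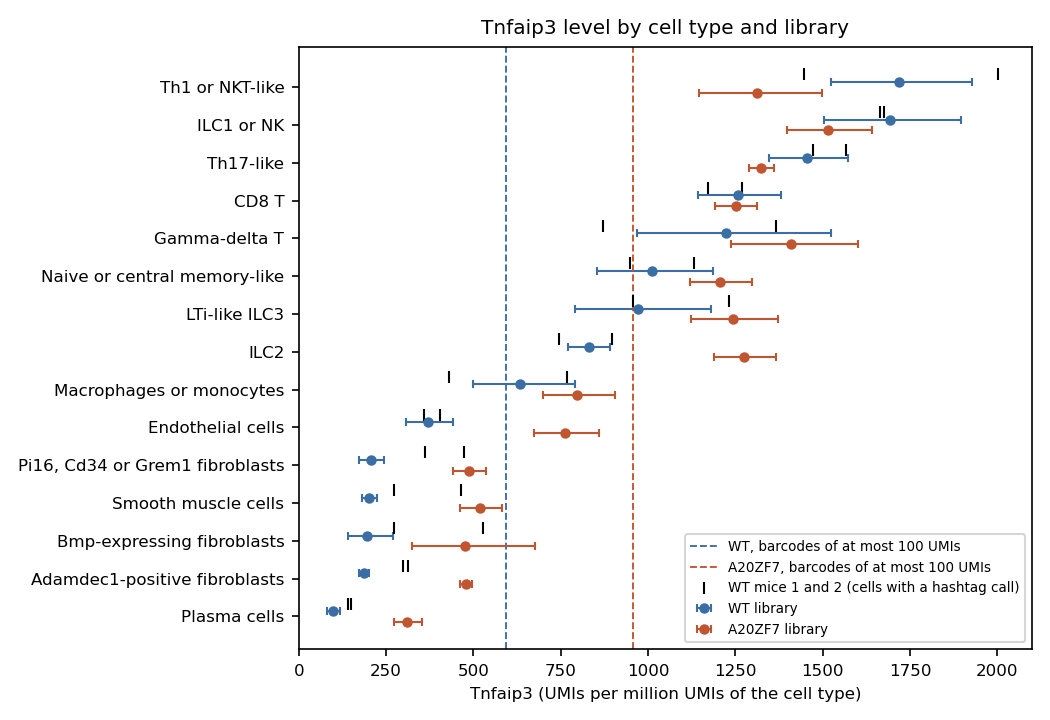
Tnfaip3 level (CPM) in the 15 named cell types, with points for the WT and A20ZF7 libraries, bars for the 95% Poisson interval of the counts, black ticks for the WT mice and dashed lines for barcodes of at most 100 UMIs (592 CPM in WT, 958 CPM in A20ZF7). T cell and innate lymphoid types sit between 830 and 1718 CPM in both libraries, while fibroblasts, smooth muscle, endothelial and plasma cells sit lower down, and lower in WT than in A20ZF7.

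In T cells as a whole Tnfaip3 did not differ between the libraries by more than the counting error. The level was 1385 CPM in WT and 1353 CPM in A20ZF7, with 1413 CPM in each WT mouse, and the ratio was 0.977 (95% interval 0.945 to 1.01). Free RNA was subtracted in proportion to the immunoglobulin RNA of the T cells, which removed 12.1% of their UMIs in WT and 35.8% in A20ZF7, and the remainder was rescaled to the same total. The ratio was then 1.05, and 0.770 where the remainder was not rescaled. The share of T cells with a Tnfaip3 UMI was 71.4% (69.6 to 73.1) in WT and 70.8% (70.0 to 71.5) in A20ZF7. After thinning each cell to 500 UMIs the shares were 47.6% and 49.1%, for which 12188 of the 13698 A20ZF7 T cells were deep enough and every WT T cell was. Plasma cells, the type with the lowest level, gave shares of 6.93% and 10.99% at that depth.

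Subsets of T cells differed from one another by modest amounts. Th17-like cells, the IL-17 lineage gated without any IL-17 or IL-22 gene, held 1456 CPM of Tnfaip3 in WT (1473 and 1566 CPM in the mice) and 1324 CPM in A20ZF7, a ratio of 0.909 (0.838 to 0.988). Th1 or NKT-like cells held 1718 and 1313 CPM, a ratio of 0.765 (0.639 to 0.914). The A20ZF7 value of the Th17-like cells lay below both WT mice, whereas for the Th1 or NKT-like cells it lay below the lower of mice that were themselves far apart, at 1448 and 2003 CPM. T cells that passed several subset gates also had an interval below 1, at 0.883 (0.805 to 0.969). CD8 T cells (1258 and 1251 CPM, ratio 0.994) and gamma-delta T cells (1223 and 1410 CPM, 1.15, 0.891 to 1.51) did not, and naive or central memory-like cells were at 1010 and 1206 CPM (1.19, 0.999 to 1.44). The direction in Th17-like cells turned, to 1.04 with 1 more marker per gate and to 1.01 with free RNA subtracted and the total rescaled (0.648 without rescaling). None of these subsets was past the fold, and differences between subsets were not tested.

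Tnfaip3 took up a smaller share of the UMIs in dividing T cells than in other T cells, in both genotypes. The gate for division used cell cycle genes alone and found 66 WT and 1197 A20ZF7 T cells. In WT the level was 804 CPM in dividing and 1418 CPM in other T cells, a ratio of 0.567 (0.473 to 0.675). In A20ZF7 it was 950 and 1429 CPM, a ratio of 0.665 (0.637 to 0.695). Other T cells thus differed between genotypes by less than the counting error, with an A20ZF7 to WT ratio of 1.01 (0.974 to 1.04). The WT mice stood at 798 and 753 CPM in dividing and at 1440 and 1452 CPM in other T cells. Tnip1 was at 125 CPM in dividing and 156 CPM in other A20ZF7 T cells (0.802, 0.708 to 0.905). In WT it was at 67.5 and 126 CPM (0.536, 0.265 to 0.971), but all 11 UMIs of the dividing cells came from mouse 2, where dividing cells were at 131 CPM and other T cells at 125 CPM. For Itch and Tax1bp1 the ratio was 0.722 and 0.716 in WT, where both intervals include 1, and 0.798 and 0.905 in A20ZF7, where both lie below 1. Cyld differed little, with ratios of 0.930 and 0.936. Dividing cells hold more UMIs each, and all these values are scaled to the same total. Counted per cell, the direction for Tnfaip3 was the opposite. In WT there were 131 Tnfaip3 UMIs in 66 dividing and 4044 in 2499 other T cells. In A20ZF7 there were 2280 in 1197 dividing and 18395 in 12501 other T cells.

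Among innate lymphoid cells only ILC2, the type 2 cytokine-producing subset, were past the fold for Tnfaip3, and differences between subsets were not tested. ILC2 held 830 CPM in WT and 1275 CPM in A20ZF7, a ratio of 1.54 (1.39 to 1.70). The WT mice stood at 896 and 745 CPM, so the A20ZF7 value exceeded each of them, by 1.42-fold and 1.71-fold. The share of ILC2 with a Tnfaip3 UMI was 52.2% (48.8 to 55.7) in WT and 65.2% (61.4 to 68.8) in A20ZF7, and after thinning to 500 UMIs 33.3% and 45.5%. Ptprc in the same cells was 521 CPM in WT and 621 CPM in A20ZF7, and the 6 genes of the T cell receptor core, which ILC2 should lack, summed to 404 and 531 CPM. That sum is limited by the gates and does not measure all T cell RNA in these cells. The proportion of Tnfaip3 to Ptprc in ILC2 was 1.59 in WT and 2.05 in A20ZF7. The same subtraction of free RNA gave a ratio of Tnfaip3 of 1.59, and of 1.38 without rescaling.

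ILC3, the RORγt lineage, showed no difference as a whole. All ILC3 held 1322 CPM in WT and 1297 CPM in A20ZF7 (0.981, 0.900 to 1.07), with WT mice at 1451 and 1309 CPM. Their LTi-like subset was at 971 and 1243 CPM (1.28, 1.03 to 1.61). Its WT mice stood at 1232 and 956 CPM, so mouse 1 was close to the A20ZF7 value. ILC1 or NK cells were at 1692 and 1515 CPM (0.895, 0.778 to 1.03). Over all innate lymphoid cells the levels were 1095 CPM in WT and 1319 CPM in A20ZF7, a ratio of 1.21 (1.14 to 1.28), and the WT mice stood at 1160 and 1014 CPM. With free RNA subtracted and no rescaling it turned to 0.954. That pooled ratio mixes subsets whose proportions differed between the libraries: ILC2 made up 823 of 1594 WT and 655 of 2835 A20ZF7 innate lymphoid cells, and ILC2 were the lowest of the named subsets in WT.

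Structural cells gave larger ratios from low levels. Fibroblasts, the collagen-producing stromal cells, held 189 CPM of Tnfaip3 in WT and 486 CPM in A20ZF7, a ratio of 2.58 (2.41 to 2.76). Smooth muscle cells held 201 and 518 CPM (2.57, 2.19 to 3.03), but their WT mice stood at 272 and 465 CPM. Endothelial cells held 369 and 763 CPM (2.07, 1.66 to 2.59), with WT mice at 403 and 358 CPM. All 4 fibroblast gates showed a ratio above 1.5, from 2.37 in fibroblasts marked by Pi16, Cd34 or Grem1 to 2.83 in those not split further. The WT mice did not lie clearly below A20ZF7 in every gate. In Bmp-expressing fibroblasts they stood at 527 CPM (14 cells) and 274 CPM, against 476 CPM in A20ZF7. In those marked by Pi16, Cd34 or Grem1 they stood at 362 and 472 CPM, against 487 CPM. In the other gates both mice were lower than A20ZF7. Over all fibroblasts the WT mice lay between the libraries, at 308 and 326 CPM, since the WT fibroblasts without a hashtag call (3095 of 4456) held only 117 CPM. Against mouse 1 and mouse 2 the A20ZF7 level was 1.58-fold and 1.49-fold in fibroblasts, and 1.90-fold and 1.12-fold in smooth muscle. WT smooth muscle cells without a call (957 of 1228) held 140 CPM. Ptprc was 179 and 196 CPM in the fibroblasts of the mice and 58.3 CPM in uncalled ones. In smooth muscle it was 258 and 240 CPM against 54.6 CPM. The cells with a call are thus no even sample of WT structural cells, and these values mix that with spread between animals.

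Lymphocyte RNA was present in the structural cells and moved with these ratios. In fibroblasts, where no Ptprc is expected, Ptprc was 105 CPM in WT and 292 CPM in A20ZF7, and the T cell receptor core summed to 113 and 321 CPM. The gates limit the core sum in all structural cells. Tnfaip3 stood in nearly the same proportion to Ptprc in fibroblasts (1.80 in WT, 1.66 in A20ZF7) as in T cells (1.63 and 1.61). In free RNA the proportion was lower, with Tnfaip3 and Ptprc at 592 and 571 CPM in WT and 958 and 934 CPM in A20ZF7. The proportion that stray RNA in fibroblasts carries was not tested. In smooth muscle the proportion was 1.89 and 1.68, with Ptprc at 107 and 308 CPM. Endothelial cells held more Tnfaip3 per Ptprc than T cells did, 2.98 in WT and 2.05 in A20ZF7, with Ptprc at 124 and 373 CPM and the T cell receptor core at 133 and 359 CPM.

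**Figure D2:**
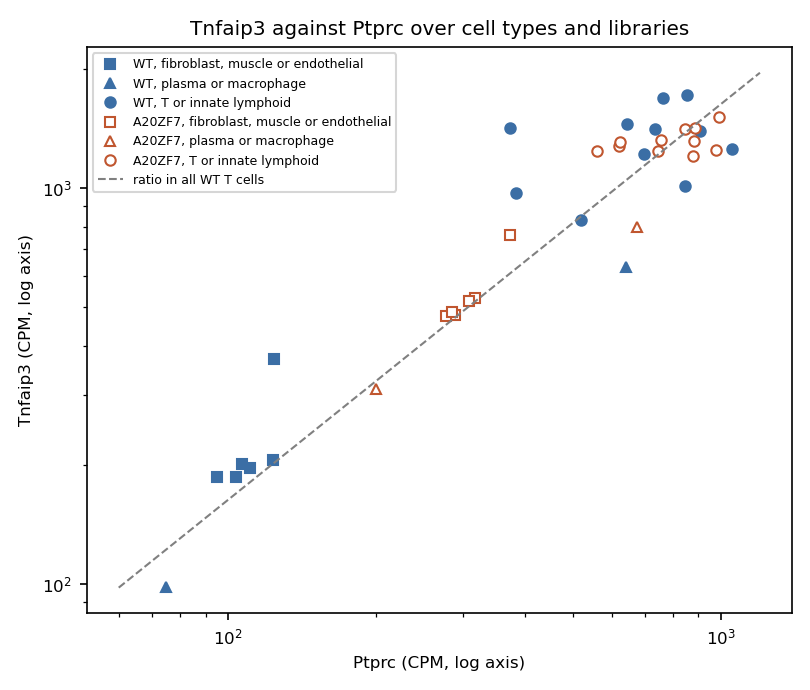
Tnfaip3 against Ptprc level (CPM, log axes), 1 point for each marker-gated cell type and library, with the dashed line at the proportion in all WT T cells (1.63). Fibroblasts and smooth muscle of both libraries lie near the line, and endothelial cells lie above it.

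When the Tnfaip3 that would accompany this Ptprc at the proportion of T cells was taken away, fibroblasts held 18.0 CPM in WT and 17.1 CPM in A20ZF7, a ratio of 0.949. Smooth muscle then held 27.7 and 23.2 CPM (0.839) and endothelial cells 167 and 164 CPM (0.982). This takes 12.3% of the UMIs of WT and 34.7% of those of A20ZF7 fibroblasts as lymphocyte RNA, and the direction depends on whether the remainder is rescaled to the same total. With rescaling the ratios were 1.27 in fibroblasts, 1.16 in smooth muscle and 1.504 in endothelial cells. Fibroblasts restricted to cells with no UMI of the lymphocyte genes held 117 CPM in WT and 323 CPM in A20ZF7 (2.76). A20ZF7 fibroblasts had a median of 953 UMIs and Ptprc at 292 CPM. At such depth a cell can hold lymphocyte RNA without a UMI of these genes, so the restriction cannot remove that RNA. These settings were chosen after the data were seen. Subtraction of free RNA instead, where Tnfaip3 is lower relative to Ptprc, left the fibroblast ratio above 1.5 with and without rescaling. The share of fibroblasts with a Tnfaip3 UMI was 14.7% (13.7 to 15.8) in WT and 33.0% (31.9 to 34.1) in A20ZF7, and 6.67% and 18.0% after thinning. These lay below the shares in T cells and ILC2 throughout.

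Macrophages and plasma cells were the remaining named types. Macrophages or monocytes held 633 CPM in WT and 798 CPM in A20ZF7, an interval that includes 1 (1.26, 0.972 to 1.65). Plasma cells held 98.1 and 311 CPM (3.17, 2.50 to 4.03), with WT mice at 139 and 149 CPM. Ptprc in plasma cells was 74.8 CPM in WT and 199 CPM in A20ZF7, and the T cell receptor core 45.8 and 176 CPM. Their proportion of Tnfaip3 to Ptprc was 1.31 and 1.56. The part of lymphocyte RNA in this ratio was not tested. Immunoglobulin genes took up much of the UMIs of plasma cells and unequally so, and the median gene there stood 0.65 higher in A20ZF7 on the log2 scale, against at most 0.09 in either direction in the other 18 types. Over the 19 cell types Tnfaip3 was past the fold in 8, all of them higher in A20ZF7, and its interval lay above 1 in 9 and below 1 in 3.

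**Figure D3:**
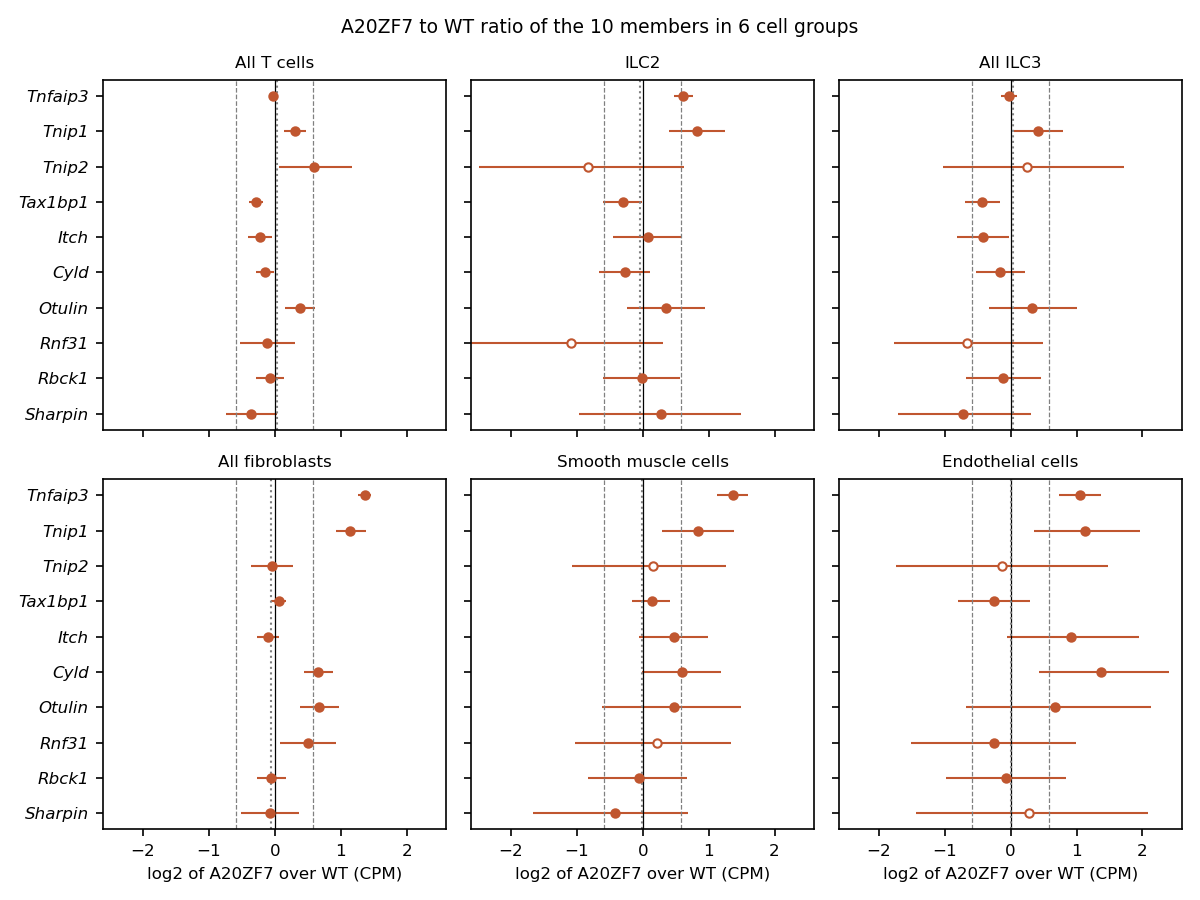
A20ZF7 to WT ratios (log2 of the ratio of CPM) of the 10 members in T cells, ILC2, ILC3, fibroblasts, smooth muscle and endothelial cells, with bars for the 95% interval of counting error, dashed lines at 1.5-fold, dotted lines at the median of all genes tested and open circles for members under the UMI minimum. Tnfaip3 and Tnip1 lie past the upper dashed line in ILC2 and the structural cells, whereas Tax1bp1 lies below 1 in T cells, ILC2 and ILC3.

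Tnip1 encodes ABIN-1, the adaptor that brings A20 to ubiquitin chains, and was the member most often higher in the mutant library. It was past the fold in 11 of the 18 cell types with enough UMIs, all higher in A20ZF7, and its interval lay above 1 in 10 and below 1 in 0. In all T cells it was at 123 CPM in WT and 152 CPM in A20ZF7, a ratio of 1.24 (1.11 to 1.38), with 125 CPM in each WT mouse. The T cell difference was therefore modest yet larger than that between the WT mice. Th17-like cells had a ratio of 1.15 whose interval includes 1 (0.875 to 1.53).

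Innate lymphoid cells showed larger Tnip1 ratios than T cells. Over all of them the level was 106 CPM in WT and 179 CPM in A20ZF7 (1.70, 1.42 to 2.03), and both WT mice, at 135 and 85.6 CPM, were lower than the mutant. ILC2 were at 93.9 and 166 CPM (1.77, 1.31 to 2.39), with WT mice at 140 and 85.4 CPM. ILC3 were at 148 and 197 CPM (1.33, 1.04 to 1.73), with WT mice far apart, at 182 and 106 CPM. ILC1 or NK cells were at 57.4 and 157 CPM (2.73, 1.39 to 5.97), with WT mice at 32.2 and 80.6 CPM. The WT value of the ILC1 or NK cells rests on 10 UMIs. Unlike Tnfaip3, Tnip1 was therefore higher in A20ZF7 in each of these named innate subsets, though in ILC3 it stood close to WT mouse 1. Free RNA also held more Tnip1 in A20ZF7, 55.9 CPM in WT and 109 CPM in the mutant. After subtraction of free RNA the ratio over all innate lymphoid cells was 1.95 with the total rescaled and 1.42 without. The T cell receptor core summed to 488 CPM in WT and 671 CPM in A20ZF7 innate lymphoid cells, against 3357 and 3438 CPM in T cells. The gates limit the sum in innate lymphoid cells, so its gap to T cells does not measure carry-over.

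In fibroblasts Tnip1 was at 38.7 CPM in WT and 85.8 CPM in A20ZF7 (2.22, 1.90 to 2.598). The WT mice stood at 51.1 and 43.8 CPM, below the mutant value. After the subtraction of the lymphocyte proportion the levels were 23.6 and 33.3 CPM (1.41, or 1.89 with rescaling), and in fibroblasts with no UMI of lymphocyte genes 34.7 and 81.9 CPM (2.36). That restriction has the limit given above. Smooth muscle (1.79, 1.22 to 2.61) and endothelial cells (2.19, 1.27 to 3.89) gave ratios of like size. In smooth muscle the WT mice stood at 53.5 and 67.1 CPM, against 84.4 CPM in A20ZF7. After the subtraction of the lymphocyte proportion without rescaling, Tnip1 in smooth muscle turned lower than WT. In endothelial cells the WT mice stood at 48.6 and 68.9 CPM, against 136 CPM in A20ZF7.

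Tnip2, which encodes ABIN-2, another A20-binding adaptor, was sparse. It reached the minimum of expected UMIs in 4 of 19 cell types and was past the fold in 0 of them. Summed over all T cells it was at 10.9 CPM in WT and 16.6 CPM in A20ZF7 (1.51, 1.05 to 2.25), with 13.97 and 10.8 CPM in the WT mice. This was the member counted past the fold in T cells, and it rests on 33 WT UMIs. In fibroblasts the levels were 26.1 and 25.4 CPM.

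Tax1bp1 encodes an adaptor and autophagy receptor that binds A20, and it was the member that tended lower in A20ZF7 lymphocytes. Its level in all T cells was 278 CPM in WT and 228 CPM in A20ZF7, a ratio of 0.819, with 275 and 278 CPM in the WT mice. Both WT mice thus lay above the mutant. Th17-like cells were at 327 and 242 CPM (0.740), and ILC2 and all innate lymphoid cells also had intervals below 1, at 0.811 and 0.799. In fibroblasts the levels were 197 and 206 CPM. Its interval lay below 1 in 5 of 19 cell types and above 1 in 0, and it was past the fold in none of the 19.

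Itch is a HECT-type ubiquitin ligase recruited with Tax1bp1. In T cells it was at 109 CPM in WT and 93.0 CPM in A20ZF7 (0.855), with 115 and 103 CPM in the WT mice, so the mutant lay below both. Fibroblasts were at 98.3 and 91.5 CPM. Of the 17 cell types with enough UMIs it was past the fold in 3 higher, endothelial cells (1.89, 0.965 to 3.86), macrophages or monocytes (1.66, 0.785 to 3.90) and plasma cells (1.95, 1.19 to 3.21), and in 1 lower, naive or central memory-like T cells (0.573, 0.323 to 1.06). Only the plasma cell interval left out 1, and the median gene of plasma cells was also higher in A20ZF7, as given above.

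The deubiquitinases Cyld and Otulin were both higher in the mutant fibroblasts, and Cyld also in endothelial cells. Cyld, which removes K63-linked and linear chains, was at 45.9 CPM in WT and 72.3 CPM in A20ZF7 fibroblasts (1.58, 1.36 to 1.84), with WT mice at 59.0 and 41.0 CPM. Endothelial cells had a Cyld ratio of 2.59 (1.35 to 5.31). Smooth muscle had one of 1.51, whose interval includes 1 (0.989 to 2.29). In T cells Cyld went the other way, at 177 CPM in WT and 160 CPM in A20ZF7 (0.899, 0.819 to 0.989). Otulin, which cuts linear chains only, was at 24.7 and 39.4 CPM in fibroblasts (1.60, 1.30 to 1.97), with 31.8 and 31.7 CPM in the WT mice. Its intervals in smooth muscle (1.39, 0.652 to 2.82) and endothelial cells (1.59, 0.624 to 4.38) include 1. Otulin was also higher in T cells, at 60.4 and 78.6 CPM (1.30, 1.11 to 1.53), with WT mice at 50.3 and 68.1 CPM. In Th17-like cells it was at 49.3 and 79.5 CPM (1.61, 1.05 to 2.61), where the WT mice were far apart, at 7.05 and 65.0 CPM. Mouse 1 had only 141906 UMIs of all genes in these cells, so its value rests on very few UMIs of Otulin. Where the lymphocyte proportion was subtracted in fibroblasts, Cyld and Otulin no longer exceeded WT, with ratios of 0.707 and 0.703, or 0.948 and 0.944 with rescaling.

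The 3 subunits of LUBAC were sparse, and most of their ratios had intervals that include 1. HOIP (Rnf31), the catalytic subunit, was at 20.2 CPM in WT and 18.7 CPM in A20ZF7 T cells, with the overlap with Irf9 named above. HOIL-1 (Rbck1), the accessory ligase subunit, was at 77.0 and 73.2 CPM, and Sharpin, the adaptor subunit, at 23.9 and 18.5 CPM (0.776, 0.597 to 1.02). In fibroblasts Rnf31 was at 13.2 and 18.6 CPM (1.41), Rbck1 at 56.5 and 54.4 CPM, and Sharpin at 14.3 and 13.5 CPM. All 3 are low, and Rnf31 and Sharpin each reached the UMI minimum in only 6 of 19 cell types, Rbck1 in 15. Over all innate lymphoid cells Rnf31 was past the fold lower, at 20.3 and 13.4 CPM (0.662, 0.401 to 1.09), with WT mice at 11.9 and 21.0 CPM. Rbck1 was past the fold in 3 higher and 1 lower, of which ILC1 or NK cells (2.35, 1.04 to 6.25) and plasma cells (2.50, 1.08 to 6.11) had intervals above 1. In plasma cells the median gene was also higher in A20ZF7. Sharpin was past the fold in 1 type, lower, fibroblasts marked by Pi16, Cd34 or Grem1 (0.618, 0.261 to 1.44), and Rnf31 in 1, higher, fibroblasts not split further (2.18, 0.97 to 5.34).

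Counted together, few members passed the fold in lymphocytes and more did in structural cells. In all T cells 1 of 10 members was at least 1.5-fold higher (12.1% of 11117 genes) and 0 lower (6.31%). In all innate lymphoid cells 1 of 10, Tnip1, was higher (15.4% of 10289 genes) and 1, Rnf31, lower (8.12%), and in ILC2 2 of 8 tested, Tnfaip3 and Tnip1, were higher (12.7% of 6771 genes) and 0 lower (14.5%). In fibroblasts 4 of 10 were higher, Tnfaip3, Tnip1, Cyld and Otulin (11.7% of 13166 genes), and 0 lower (10.7%). Smooth muscle had 3 of 8 higher (14.8% of 7462 genes) and 0 lower (12.4%), and endothelial cells 5 of 8 higher, these 4 with Itch (17.2% of 5469 genes), and 0 lower (13.5%). In Th17-like cells 1 of 7, Otulin, was higher (15.1% of 6030 genes) and 0 lower (7.36%). With 8 or 10 members a count changes its share by a large step, and the structural cell counts hold the lymphocyte RNA given above. Without WT mouse 2 the endothelial count was 3 and the T cell count 0.

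The same rule was applied between the WT mice, where counting error and difference between animals of 1 genotype are mixed. Between mouse 2 and mouse 1, 0 of 10 members were past the fold in T cells (11.5% of 8595 genes), 1 of 8 in innate lymphoid cells (15.1% of 6396 genes) and 0 of 10 in fibroblasts (12.0% of 9232 genes). In smaller groups, where counting error is larger, a larger share of all genes was past the fold. In smooth muscle 2 of 5 members were (22.3% of 3582 genes) and in endothelial cells 0 of 2 (21.7% of 2605 genes). In ILC2 1 of 7 members was (17.9% of 4178 genes) and in Th17-like cells 2 of 5 (19.3% of 2389 genes). The pools of single mice are smaller than the library totals, so the floor on UMIs leaves fewer genes. In counts simulated at the depths of the WT and A20ZF7 libraries, unchanged genes also passed the fold by counting error alone. Their share was 3.30% in T cells, 7.18% in innate lymphoid cells, 3.95% in fibroblasts, 10.1% in smooth muscle and 16.4% in endothelial cells.

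Across cell types, Cyld, Otulin and Tnip1 followed Tnfaip3 most closely among the members. Over 38 points (19 cell types in each library), Pearson's r of log2(CPM + 10) with Tnfaip3 was 0.925 for Cyld, 0.870 for Otulin and 0.868 for Tnip1. It was 0.635 for Itch, 0.598 for Rbck1, 0.596 for Tax1bp1, 0.284 for Rnf31 and 0.267 for Sharpin, and it was −0.320 for Tnip2, which was highest in fibroblasts. Of the 4780 genes ranked, the 5 most like Tnfaip3 were Stk10 (0.981), Rasgrp1 (0.976), Btg1 (0.967), Ankrd44 (0.966) and Stk17b (0.965). Ptprc stood at 0.946 by the same measure. The points share their libraries, free RNA and depth, and the coefficients mostly describe the contrast of lymphocytes with other cells.

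The wider machinery of M1 and K63 ubiquitin signalling was counted over 34 genes of ligases, adaptors and kinases. In T cells the median log2 ratio was 0.07 against 0.03 over all genes tested. Past the fold, 2 of 34 were higher (5.88%, against 12.1% of all genes) and 0 lower (against 6.31%). These were Birc2, the cIAP1 ligase, at 81.6 and 131 CPM (1.61, 1.41 to 1.84), and Tnip3, encoding ABIN-3, at 7.30 and 11.3 CPM (1.54, 0.987 to 2.53). In all innate lymphoid cells 4 were higher (11.8%, against 15.4% of all genes) and 2 lower (5.88%, against 8.12%). The median was 0.19 against 0.05. The higher ones included Malt1, the paracaspase that cleaves A20, at 122 and 232 CPM (1.90, 1.62 to 2.23), and Peli1, a ubiquitin ligase of the Toll-like receptor and T cell receptor pathways, at 227 and 410 CPM (1.81, 1.61 to 2.04), with Optn and Tnip3 beside them. The lower ones were Ripk3, the kinase of necroptosis (0.549, 0.339 to 0.884), and Tab3 (0.518, 0.306 to 0.869). In ILC2 7 of 29 were higher (24.1%, against 12.7% of all genes) and 4 lower (13.8%, against 14.5%). Between the WT mice 8 of 20 were past the fold there (17.9% of all genes).

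In fibroblasts 7 of the 34 were higher (20.6%, against 11.7% of all genes) and 1, Usp21 (0.646), was lower (2.94%, against 10.7%). Among the higher ones were Ripk3, Birc2, Birc3, Tnip3, Peli1 and Malt1, and the median over the list was 0.20 against −0.05. Malt1 was at 38.2 and 133 CPM (3.47, 2.99 to 4.05). Ptprc and the T cell receptor core were higher in the same fibroblasts, as given above. The part of lymphocyte RNA in the Malt1 ratio was not tested. In smooth muscle 8 of 27 were higher (29.6%, against 14.8% of all genes) and 0 lower (against 12.4%). Endothelial cells had 5 of 24 higher (20.8%, against 17.2%) and 1 lower (4.17%, against 13.5%).

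Target genes of NF-κB, the factor that A20 restrains and that induces Tnfaip3, were counted over 15 genes. In T cells 2 of 15 were higher past the fold (13.3%, against 12.1% of all genes) and 1 lower (6.67%, against 6.31%), so the shares stood near those of all genes, and the median log2 ratio was 0.18 against 0.03. Between the WT mice 3 of 15 were past the fold (11.5% of all genes). Nfkb1, which encodes the p105 precursor, was at 505 CPM in WT and 787 CPM in A20ZF7 (1.56, 1.48 to 1.64), and the WT mice stood at 498 and 512 CPM. Bcl3, an atypical IκB protein, was at 17.6 and 43.2 CPM (2.46, 1.86 to 3.32). The gene of the cytokine Tnf was at 34.8 and 12.0 CPM (0.346, 0.271 to 0.444), with WT mice at 24.2 and 36.4 CPM.

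ILC2, where Tnfaip3 was higher, had 8 of 14 target genes higher (57.1%, against 12.7% of all genes) and 0 lower (against 14.5%). The median log2 ratio was 0.68 against −0.03 over all genes tested. Traf1, a signalling adaptor, was at 53.2 CPM in WT and 158 CPM in A20ZF7 (2.97, 2.08 to 4.30; WT mice 52.5 and 68.3 CPM). Relb, a subunit of the non-canonical factor, was at 47.5 and 104 CPM (2.18, 1.46 to 3.30; 70.0 and 56.9 CPM). Nfkbie, Nfkb1, Nfkb2, Bcl3, Icam1 and Cd83 were the others, with ratios from 1.55 to 2.67. Of these, the Bcl3 interval includes 1. Over all innate lymphoid cells 3 of 15 were higher, Nfkb2, Bcl3 and Traf1 (against 15.4% of all genes). Of the 15, 1 was lower, Tnf (against 8.12% of all genes). The median there was 0.14 against 0.05.

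**Figure D4:**
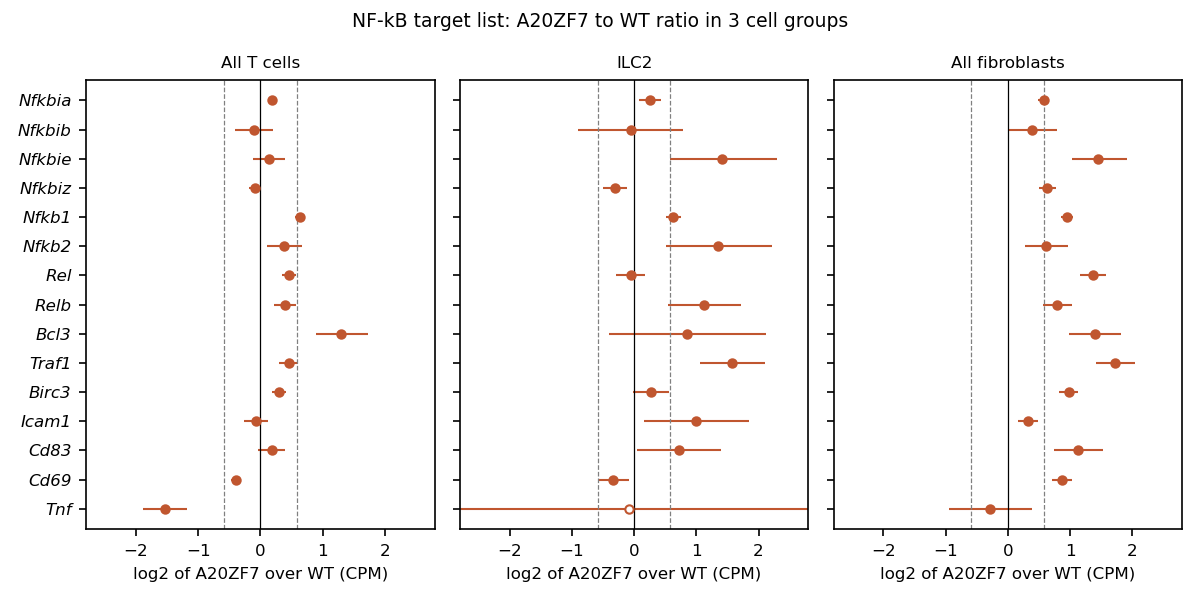
A20ZF7 to WT ratios (log2 of the ratio of CPM) of the 15 NF-κB target genes in T cells, ILC2 and fibroblasts, with bars for the 95% interval of counting error, dashed lines at 1.5-fold and an open circle for a gene under the UMI minimum. At least 1.5-fold higher were 8 of 14 tested genes in ILC2 (12.7% of all genes) and 11 of 15 in fibroblasts (11.7% of all genes). In T cells 2 were higher (12.1% of all genes) and Tnf was lower (6.31%).

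Fibroblasts had 11 of 15 target genes higher (73.3%, against 11.7% of all genes) and 0 lower (against 10.7%). The median was 0.87 against −0.05, and the WT values include the cells without a hashtag call. Rel was at 47.1 and 122 CPM (2.58, 2.25 to 2.97) and Traf1 at 18.8 and 62.2 CPM (3.30, 2.67 to 4.13). Both are strong in lymphocytes, and Cd69, an activation marker of lymphocytes, was at 76.4 and 140 CPM (1.83, 1.63 to 2.05). Smooth muscle had 10 of 12 higher (83.3%, against 14.8% of all genes) and endothelial cells 6 of 13 (46.2%, against 17.2%). In each 0 were lower (against 12.4% and 13.5% of all genes). Between the WT mice 1 of 6 of these genes in smooth muscle (22.3% of all genes) and 5 of 8 in endothelial cells (21.7%) were past the fold. Lymphocyte RNA was higher in the mutant in all these cells, and its part in the list was not tested.

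The list of genes taken as signs of handling differed between the libraries too, and the cause was not tested. Of 10 immediate-early and heat shock genes, 6 were lower past the fold in A20ZF7 T cells (6.31% of all genes) and 0 higher (12.1%). The median log2 ratio was −0.65. In Th17-like cells 9 were lower (7.36% of all genes, median −0.96). In ILC2 5 were lower (14.5% of all genes, median −0.59) and in all innate lymphoid cells 4 (8.12%, −0.51). In fibroblasts 0 passed in either direction (11.7% of all genes higher and 10.7% lower, median 0.19). Endothelial cells had 4 lower (13.5% of all genes, median −0.56) and smooth muscle 2 (12.4%, −0.36). In each 0 were higher (17.2% and 14.8% of all genes). In T cells the immediate-early genes summed to 7683 CPM in WT and 5567 CPM in A20ZF7, and the heat shock genes to 971 and 334 CPM. Tnfaip3 and Tnf are also inducible within hours, and whether handling had a part in their levels was not tested.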

How the data were processed

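Single-cell 5′ gene expression (10x Genomics) was measured in 1 library of 2 pooled mice per genotype. The authors deposited raw counts of UMIs per gene and barcode; per the labels and file headers these came from Cell Ranger (7.1 in the notes, 8.0.0 in some headers) on mm10. Antibody files of both genotypes hold identical values, so hashtags were used for WT only. Barcodes above an order-of-magnitude threshold (675 UMIs in WT, 397 in A20ZF7) were kept with 200 to 2500 genes and at most 15% mitochondrial UMIs, and WT hashtag doublets were removed (HTODemux, quantile 0.99, Seurat 5.3.0, R 4.3.3). A20ZF7 doublets were removed only where more than 1 lineage gate passed. Counts were summed per cell type, gated by distinct markers. Exact intervals came from scipy 1.17.1 and were tested on simulated data. All members were named, with the 5 genes most like Tnfaip3 and list genes past the fold. Members and lists were chosen with earlier results of these data known. Ranked genes reached 100 CPM in 1 point. Thresholds, gates, totals, free RNA and doublet filters were varied. Promoters came from RefSeq, gene spans from GENCODE. A gene of a counted list is not reported here by name.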

Additional observations from a re-analysis of the deposited data

How the results depend on the processing

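Of the ratios not among those of Tnfaip3 and Tnip1 in T, innate lymphoid and fibroblast pools, 618 were the same (within the counting interval), 43 moved and 14 turned, where only ratios past the fold were counted as turned. Of those pooled ratios 54 were the same, 17 moved and 1 turned. Settings added after seeing the data were the subtraction of lymphocyte RNA scaled by Ptprc, subtraction without rescaling of the total (which by construction gives lower ratios than with rescaling, since a larger share was removed in A20ZF7), cells without lymphocyte UMIs and the exclusion of shared barcodes. With lymphocyte RNA subtracted and the total rescaled, Cyld turned to 0.948 in fibroblasts and 0.464 in smooth muscle and Otulin to 0.944 in fibroblasts and 0.455 in endothelial cells, while Tnfaip3 and Tnip1 in fibroblasts were 1.27 and 1.89. Without rescaling, Tnfaip3 turned to 0.949 in fibroblasts, 0.982 in endothelial cells and 0.839 in smooth muscle, Tnip1 to 0.912 in smooth muscle, Cyld to 0.707 in fibroblasts and 0.336 in smooth muscle, and Otulin to 0.703 in fibroblasts and 0.297 in endothelial cells, while Tnip1 in fibroblasts was 1.41. With free RNA subtracted and the total rescaled, Cyld in smooth muscle turned to 0.625, and Tnfaip3 was 1.05 in T cells, 1.31 in innate lymphoid cells and 2.22 in fibroblasts. Without rescaling, Cyld turned to 0.852 in fibroblasts and 0.470 in smooth muscle, Tnfaip3 was 0.770, 0.954 and 1.82 in T cells, innate lymphoid cells and fibroblasts, and Tnip1 was 0.972, 1.42 and 1.73. Tnfaip3 was 0.931 in T cells with the study's limits on cells alone, and in fibroblasts 2.39 with 1 more marker per gate, 2.32 with no hashtag filter and 2.93 to 3.13 when leaving out each WT mouse in turn with uncalled cells kept. The count of members higher in T cells was 0 instead of 1 with 1 more marker, at least 1000 UMIs, division by the median ratio, a fold of 2, no hashtag filter, the study's limits alone, a total without mitochondrial, ribosomal protein and immunoglobulin genes, or free RNA subtracted without rescaling (4 lower instead of 0), and 0 to 1 when leaving out each WT mouse. In fibroblasts it was 2 instead of 4 with a fold of 2, lymphocyte RNA subtracted, or free RNA subtracted without rescaling, and 0 (2 lower) with lymphocyte RNA subtracted without rescaling. In innate lymphoid cells the count higher was 0 with a fold of 2 and with free RNA subtracted without rescaling (4 lower), and 2 with free RNA subtracted. The count lower there was 0 instead of 1 with at least 30 UMIs expected, a fold of 2, free RNA subtracted, no hashtag filter or the study's limits alone, and 0 to 1 when leaving out each WT mouse. The cause of the other changes was not tested. No paired analysis was possible because each genotype has a single library of pooled mice. A low count limits Tnip2, Rnf31 and Sharpin most.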
